A study of Mus musculus with 14 samples.

Results

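The 9 inflammatory chemokine genes Cxcl1, Cxcl2, Cx3cl1, Ccl2, Ccl7, Cxcl10, Ccl5, Ccl3 and Ccl4 were followed through every array of the study. They were taken as all probe sets to which the platform annotation gives one of these symbols, which found 11 probe sets for 9 of the 8251 genes that the array names by a probe set of a single gene. RNA labelled as murine lymph node came from mice with intact Atm (Atm+/+) and from mice without it (Atm-/-), either left untreated or collected after ionizing radiation (IR), 30 min or 120 min later. Atm encodes the kinase that DNA double-strand breaks activate. Each genotype has 3 untreated arrays and 2 for each time after IR, which makes 14, lettered A to C by the labels. The sources used here do not give the strain, age, Atm allele, radiation dose or pooling of animals. Nothing in the labels says that the lettered arrays come from separate animals, so p-values measure the spread between these arrays, which may be technical.

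Chemokines are small secreted proteins that guide leukocytes along gradients through G protein-coupled receptors. Inflammatory chemokines are mostly silent in resting tissue and are switched on in stromal cells, endothelium and macrophages by danger signals, largely through the transcription factor NF-kB, whereas homeostatic chemokines place lymphocytes within the lymph node. Among the members, Cxcl1 and Cxcl2 draw neutrophils through the receptor Cxcr2, and Cx3cl1 (fractalkine) is made as a membrane-anchored protein on endothelium and epithelium and binds Cx3cr1. Ccl2 and Ccl7 draw monocytes through Ccr2, Cxcl10 draws activated T cells through Cxcr3, and Ccl3, Ccl4 and Ccl5 draw monocytes and T cells. Atm is known as a link between DNA breaks in the nucleus and NF-kB.

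Levels are the linear intensities as deposited, and changes are on the log2(intensity + 32) scale after quantile normalization, which understates changes of weak probe sets. A probe set was tested when at least 2 arrays held it above their own 40th percentile, an intensity of 38.3 to 55.28 depending on the array. A call is an adjusted p under 0.05 from limma over the 8938 tested probe sets. The median correlation of an array with the other arrays ran from 0.910 to 0.953, lowest on Atm-/- 30 min A. Salivary gland markers were strong on every array, with summed intensities of 46697 to 82404, and skeletal muscle markers varied from 1128 to 12493 in sum. Lymph node genes were present, with the B cell gene Cd79a at 233.4 to 921.4 and the T cell gene Cd3e at 26.2 to 156.1. In such mixed tissue, fewer cells of a type and less RNA per cell cannot be told apart. Which of these tissues a chemokine change came from was not tested.

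Promoter sequence is shown for the 3 chemokine genes called at 120 min in Atm+/+ and also for Cxcl10, which was not tested. The windows are the 250 bases before the start site in RefSeq's GRCm38.p6 table, written 5′ to 3′ on the gene's strand, with motif matches in capitals. Cxcl1 lies at chr5:90890995-90891244 (plus strand), Cxcl2 at chr5:90903649-90903898 (plus), Cx3cl1 at chr8:94771930-94772179 (plus) and Cxcl10 at chr5:92348890-92349139 (minus).
Cxcl1: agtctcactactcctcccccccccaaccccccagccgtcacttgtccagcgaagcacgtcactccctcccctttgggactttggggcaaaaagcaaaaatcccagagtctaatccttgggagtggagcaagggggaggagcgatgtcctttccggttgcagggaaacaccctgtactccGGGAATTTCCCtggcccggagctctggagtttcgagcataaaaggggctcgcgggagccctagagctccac
Cxcl2: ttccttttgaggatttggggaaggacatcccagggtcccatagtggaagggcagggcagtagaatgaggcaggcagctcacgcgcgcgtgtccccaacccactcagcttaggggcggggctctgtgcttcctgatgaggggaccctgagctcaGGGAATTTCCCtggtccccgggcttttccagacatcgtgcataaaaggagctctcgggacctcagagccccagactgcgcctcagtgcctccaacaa
Cx3cl1: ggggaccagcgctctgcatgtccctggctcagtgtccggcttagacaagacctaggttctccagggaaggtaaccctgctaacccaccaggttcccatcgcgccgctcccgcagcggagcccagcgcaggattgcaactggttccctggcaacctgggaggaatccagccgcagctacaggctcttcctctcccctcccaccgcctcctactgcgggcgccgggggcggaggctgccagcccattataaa
Cxcl10: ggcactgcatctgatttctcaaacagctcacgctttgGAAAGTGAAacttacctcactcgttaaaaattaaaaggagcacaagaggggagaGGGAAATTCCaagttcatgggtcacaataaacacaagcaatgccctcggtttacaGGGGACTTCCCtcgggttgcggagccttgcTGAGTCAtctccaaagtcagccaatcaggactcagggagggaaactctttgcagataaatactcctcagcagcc
The motifs searched on both strands were the kappaB motif bound by NF-kB, the AP-1 motif TGANTCA and the interferon motif GAAANNGAA. Cxcl1 and Cxcl2 are neighbouring genes, and both windows hold GGGAATTTCCC, in which kappaB matches of both strands overlap. It lies 71 to 61 bases before the start of Cxcl1 and 97 to 87 bases before that of Cxcl2. Cx3cl1, which sits between Ccl22 and Ccl17, has no match to any of the motifs in its window. Cxcl10 has 3 kappaB matches, of which a pair overlap, and 1 match each to the AP-1 and interferon motifs. Ccl3, the fifth member with a window in the table, has 1 interferon match. Over all 32851 windows of this length, 7.25% hold a kappaB match, 6.75% an AP-1 match and 7.13% an interferon match. A match describes letters and does not show binding. Windows of Ccl2, Ccl7, Ccl5 and Ccl4 were not analysed here.

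In irradiated Atm+/+ samples the neutrophil attractants Cxcl1 and Cxcl2 and the fractalkine gene Cx3cl1 rose. Cxcl1 did so already at 30 min and all 3 at 120 min, Cx3cl1 on its probe set 98008_at only. In Atm-/- samples no chemokine probe set was called at either time. The other 6 chemokine genes were not called in any comparison, and 4 of them were too weak to be tested. Of the 11 probe sets, 7 of 5 genes were tested: both of Cxcl1, both of Cx3cl1, and those of Cxcl2, Ccl3 and Ccl5. Cxcl2 passed the filter on 4 arrays, all of them irradiated Atm+/+ arrays, so it entered the test only through the groups where it was high. Ccl3 passed on 3 arrays, against 9 arrays for either Cxcl1 set, 13 for Ccl5 and 14 for both Cx3cl1 sets.

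Cxcl1 is measured by 2 probe sets, 95348_at and 95349_g_at, designed from the same sequence record, so they are not independent measurements. On 95348_at the Atm+/+ intensities were 31.5, 59.1 and 49.3 untreated, 391.6 and 597.6 at 30 min, and 931.3 and 1274.8 at 120 min. In Atm-/- they were 56.9, 47.7 and 16.2 untreated, 25.1 and 33.8 at 30 min, and 48.7 and 54.0 at 120 min. Every irradiated Atm+/+ array lay above all 10 other arrays, and the 2 times did not overlap, while every Atm-/- array lay below 59.1, the highest untreated Atm+/+ value. The rise in Atm+/+ was 2.73 ± 0.29 (log2, standard error) at 30 min (limma, adjusted p = 0.000752) and 3.84 ± 0.29 at 120 min (adjusted p = 3.53e-05). Mean deposited intensity went from 46.6 ± 14 (SD, n = 3) untreated to 1103 ± 243 (SD, n = 2) at 120 min.

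The second Cxcl1 set, 95349_g_at, gave the same order of the wild-type groups. Its Atm+/+ intensities were 87.7, 45.0 and 28.8 untreated, 426.9 and 517.5 at 30 min, and 987.3 and 1828.6 at 120 min. In Atm-/- the arrays read 66.2, 82.6 and 46.2 untreated, 41.0 and 49.7 at 30 min, and 72.2 and 40.7 at 120 min. Again the irradiated Atm+/+ arrays stood above all others and the Atm-/- groups overlapped one another. It rose by 2.58 ± 0.32 at 30 min (limma, adjusted p = 0.00371) and by 4.05 ± 0.32 at 120 min (adjusted p = 5.66e-05). The 30 min call of this set was lost without Atm+/+ 30 min B (2.46, adjusted p = 0.12 from limma). Where 1 of 2 arrays is left out of any group, the remaining array is assumed to vary like those of the other groups. At 120 min both sets kept their calls without any one of the 14 arrays. They held the 2 largest rises among all 8938 tested probe sets at 30 and at 120 min.

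Between 30 and 120 min Cxcl1 in Atm+/+ went up by a further 1.11 (95% interval 0.43 to 1.79) on 95348_at and 1.46 (0.69 to 2.23) on 95349_g_at, and neither passed over all probe sets (limma, adjusted p = 0.381 and 0.245). In Atm-/- the change of 95348_at was -0.16 (-0.78 to 0.46) at 30 min and 0.27 (-0.35 to 0.89) at 120 min. For 95349_g_at it was -0.32 (-1.02 to 0.39) and -0.13 (-0.83 to 0.57). These intervals end far below the wild-type rises.

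**Figure D1:**
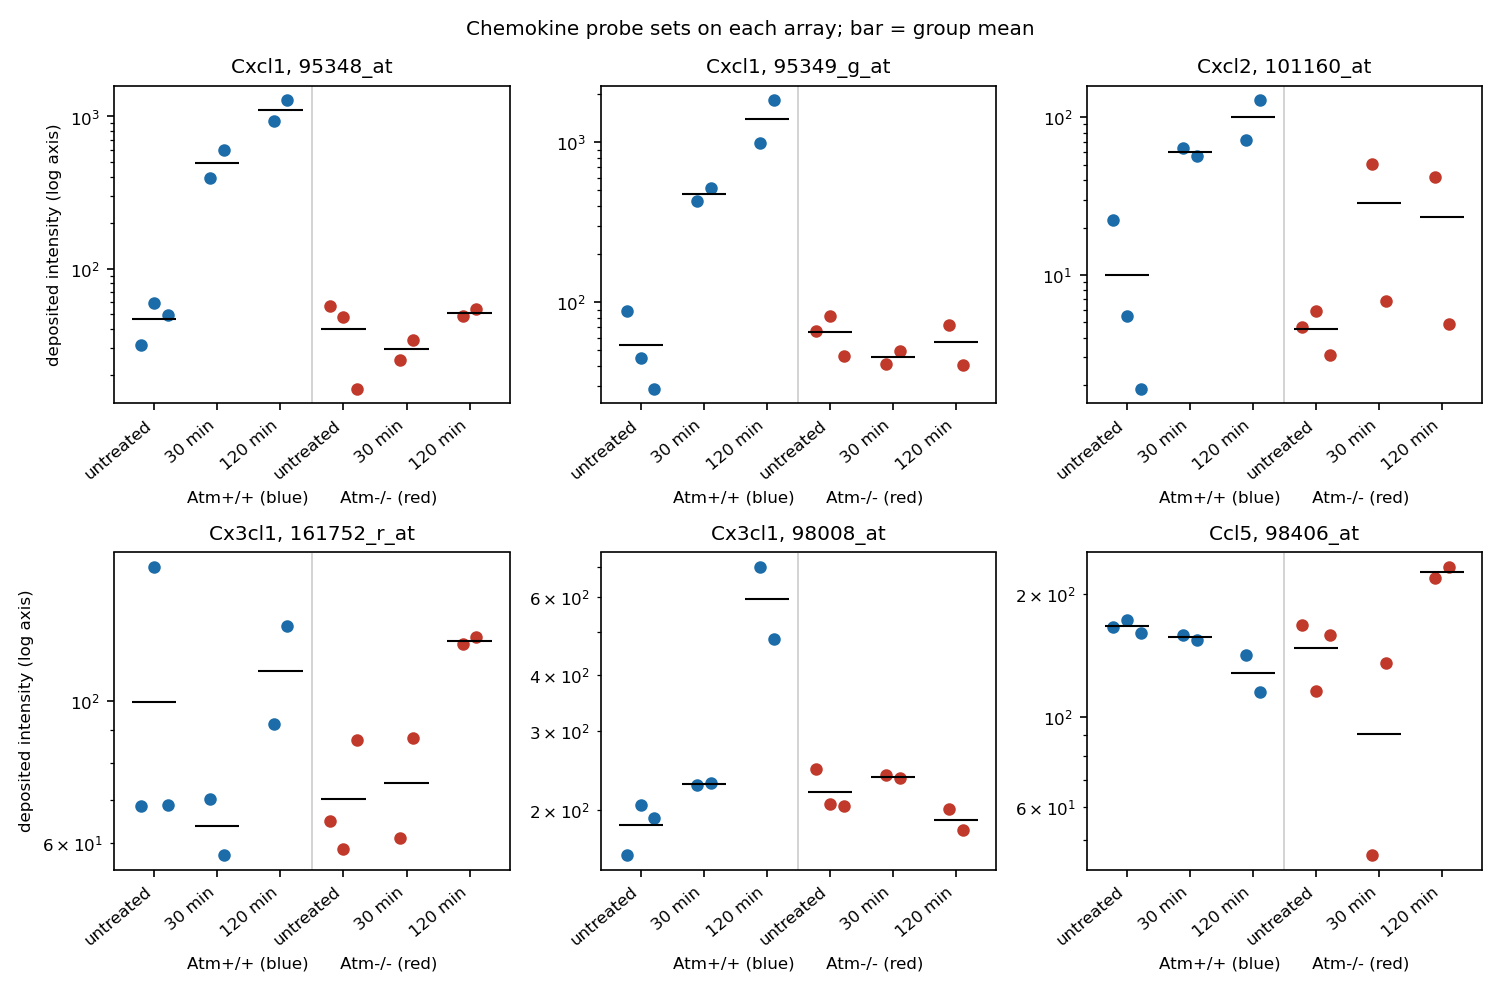
Deposited intensity (log axis) of 6 chemokine probe sets on each array, with 1 circle per array, black bars for group means, Atm+/+ in blue and Atm-/- in red. Cxcl1 climbs from under 90 to 1828.6 in Atm+/+ and stays under 90 in Atm-/-, and Cx3cl1 98008_at is high on the 2 Atm+/+ arrays at 120 min.

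Cxcl2 (101160_at), the close relative of Cxcl1, followed it at far lower intensity. Atm+/+ arrays read 22.4, 5.5 and 1.9 untreated, 64 and 56.9 at 30 min, and 71.8 and 127.9 at 120 min. Atm-/- arrays read 4.7, 5.9 and 3.1 untreated, 50.7 and 6.8 at 30 min, and 41.7 and 4.9 at 120 min. All irradiated Atm+/+ arrays lay above the other 10. In irradiated Atm-/- samples the A array was high and the B array low at both times. Atm-/- 30 min A is the array of lowest correlation, and Atm-/- 120 min A is among the 3 lowest. The part of array quality in these values was not tested. Cxcl2 rose at 120 min in Atm+/+ by 1.75 ± 0.31 (limma, adjusted p = 0.0257), while its 1.24 ± 0.31 at 30 min did not pass (adjusted p = 0.474). With no filter, where its entry did not depend on its own rise, the change at 120 min was the same and was called (limma over 12422 probe sets, adjusted p = 0.0369). The call at 120 min was lost without Atm+/+ untreated B (adjusted p = 0.0852), untreated C (0.0664), 120 min A (0.0888) or 120 min B (0.381), and without quantile normalization (1.65, 0.0633), with an offset of 16 (2.32, 0.0522) or with the compared groups alone (1.74, 0.0519). The rise at 30 min was called without the 3 arrays of lowest correlation (1.39, limma adjusted p = 0.0397), a setting chosen after seeing the data. In Atm-/- the change of Cxcl2 was 0.61 (95% interval -0.05 to 1.27) at 30 min and 0.52 (-0.15 to 1.18) at 120 min.

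Cx3cl1, the membrane-anchored fractalkine, was late. On 98008_at the Atm+/+ arrays read 158.1, 205.0 and 191.2 untreated, 227.6 and 229.3 at 30 min, and 699.1 and 483.3 at 120 min. In Atm-/- the arrays read 246.6, 205.6 and 204.1 untreated, 238.6 and 235.0 at 30 min, and 200.3 and 179.9 at 120 min. Both Atm+/+ arrays at 120 min stood apart, and the other 12 lay between 158.1 and 246.6. The rise was 1.47 ± 0.17 at 120 min (limma, adjusted p = 0.00113), kept without any one array, and 0.28 ± 0.17 at 30 min (adjusted p = 0.98). Cx3cl1 was also higher at 120 than at 30 min in Atm+/+, by 1.19 ± 0.19 (limma, adjusted p = 0.033). That call was lost without 10 of the 14 arrays in turn: in Atm+/+ untreated C, 30 min A and B and 120 min A and B, and in Atm-/- untreated A, B and C and 120 min A and B. The adjusted p then reached 0.38, with a change of 0.98, without Atm+/+ 120 min A. In Atm-/- the change at 120 min was -0.17 (95% interval -0.55 to 0.20).

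The second Cx3cl1 set, 161752_r_at, did not follow. Its suffix marks a set designed under relaxed probe rules, and it was weaker. The Atm+/+ arrays read 68.5, 162.3 and 68.6 untreated, 70.2 and 57.3 at 30 min, and 92.0 and 131.2 at 120 min. In Atm-/- the arrays read 64.9, 58.6 and 87.0 untreated, 61.0 and 87.5 at 30 min, and 122.8 and 125.8 at 120 min. One untreated Atm+/+ array was the highest of all, and the wild-type groups overlapped. Its change at 120 min was 0.24 (95% interval -0.37 to 0.85) in Atm+/+ and 0.66 (0.05 to 1.27) in Atm-/-, with limma adjusted p = 0.873 and 0.674. The 2 sets of Cx3cl1 therefore differ, and the result for this gene rests on 98008_at.

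Ccl5 (RANTES), which attracts T cells and monocytes and is made by T and NK cells themselves, was measured well and was not called. The Atm+/+ arrays read 166.3, 172.4 and 160.5 untreated, 158.5 and 154.5 at 30 min, and 141.7 and 114.8 at 120 min. In Atm-/- the arrays read 168.0, 115.5 and 158.6 untreated, 45.8 and 135.7 at 30 min, and 218.4 and 232.8 at 120 min. In Atm+/+ the irradiated arrays lay below the untreated ones, and in Atm-/- the 120 min arrays were the highest of all 14. The change at 120 min was -0.28 (95% interval -0.91 to 0.34) in Atm+/+ and 0.54 (-0.09 to 1.16) in Atm-/-, and at 30 min in Atm-/- it was -0.69 (-1.31 to -0.06), with limma adjusted p = 0.85, 0.745 and 0.569. The low value at 30 min rests on Atm-/- 30 min A: without 30 min B the change became -1.32 and was called (limma, adjusted p = 0.0217), on 1 array whose spread is taken from the other groups, and without 30 min A the change was -0.05. Between 30 and 120 min in Atm-/- the difference was 1.22 (0.54 to 1.91), adjusted p = 0.479. Beside it, summed T cell markers in Atm+/+ ran from 1062.5 to 1129.7 untreated, 816.4 to 1068.9 at 30 min and 654.9 to 685.9 at 120 min. In Atm-/- they ran from 736.8 to 873 untreated, 688 to 1198.7 at 30 min and 921.6 to 976.5 at 120 min. Summed NK and cytotoxic cell markers in Atm+/+ were 178.3 to 329.8 untreated, 172.4 to 221.3 at 30 min and 126.3 to 247.1 at 120 min. Those in Atm-/- were 192.5 to 223.2, 149.5 to 414.8 and 201.1 to 216.7 in turn. Their part in the Ccl5 values was not tested.

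Ccl3 and Ccl4, the macrophage inflammatory proteins, are neighbouring genes. Ccl3 (102424_at) read 28.2, 42.5 and 39.6 in untreated Atm+/+, 25.0 and 63.5 at 30 min, and 33.4 and 58.5 at 120 min. In Atm-/- it read 57.6, 32.1 and 10.1 untreated, 9.1 and 28.3 at 30 min, and 22.5 and 33.2 at 120 min. Within each genotype the times overlapped, and the change at 120 min was 0.26 (95% interval -0.43 to 0.96) in Atm+/+ and -0.06 (-0.76 to 0.64) in Atm-/-. Ccl4 (94146_at) exceeded its array's 40th percentile on 0 arrays. It read 8.6 to 25.2 in untreated Atm+/+, 27.7 and 29.2 at 30 min and 11.6 and 30.5 at 120 min, and in Atm-/- 9.2 to 9.8 untreated, 5.8 and 11.9 at 30 min and 15.1 and 32.8 at 120 min.

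Ccl2 and Ccl7, the monocyte attractants, are also neighbours and were equally weak. Ccl2 (102736_at) read 8.8, 4.3 and 4.7 in untreated Atm+/+, 20.2 and 21.8 at 30 min, and 8.2 and 22.9 at 120 min. In Atm-/- it read 9.9, 35.6 and 6.0 untreated, 11.7 and 0.9 at 30 min, and 6.3 and 6.0 at 120 min. Its highest value on any array came from an untreated Atm-/- array. Ccl7 (94761_at) read 14.7 to 23.9 in untreated Atm+/+ and 29.0 to 34.4 on the 4 irradiated Atm+/+ arrays, which lay above the untreated ones. In Atm-/- it read 11.8 to 29.2 untreated, 4.0 and 4.4 at 30 min, and 6.6 and 33.7 at 120 min. Cxcl10 (93858_at), the interferon-inducible T cell attractant, read 4.5 to 32.2 in untreated Atm+/+, 4.0 and 10.5 at 30 min and 25.1 and 43.4 at 120 min, against 5.1 to 34.1 over all Atm-/- arrays. When the filter was dropped, the changes at 120 min in Atm+/+ were 0.39 for Ccl2, 0.42 for Ccl7, 0.58 for Cxcl10 and 0.15 for Ccl4, with limma adjusted p from 0.619 to 0.923. No change of these 4 genes was called.

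**Figure D2:**
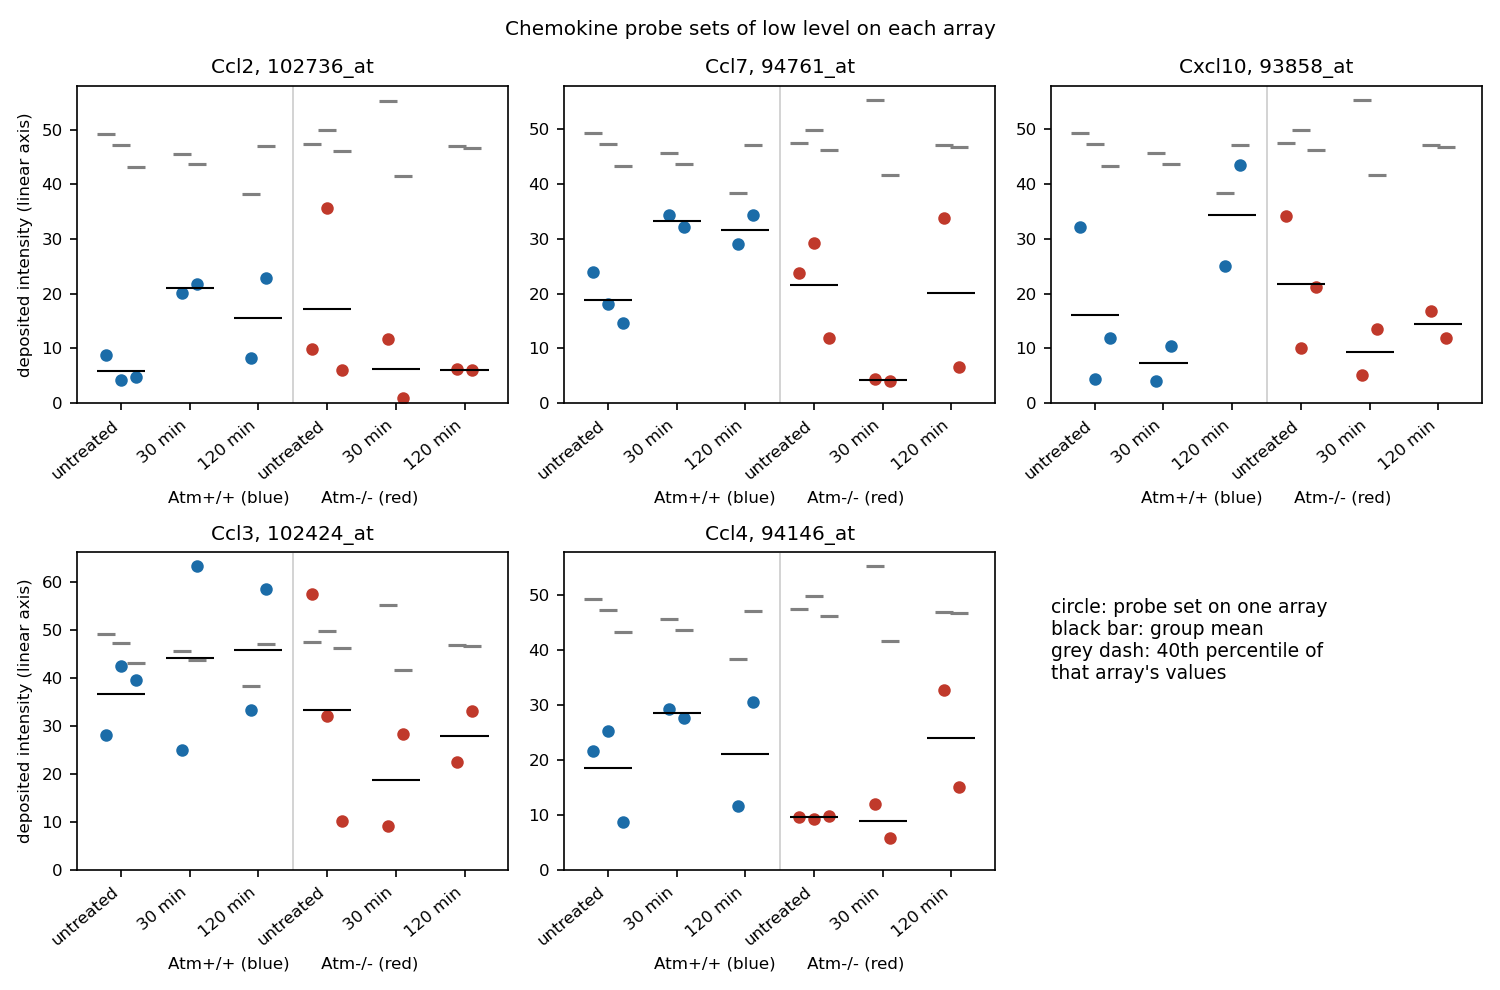
Deposited intensity (linear axis) of the 5 weak chemokine probe sets on each array, with group means as black bars and each array's 40th percentile as a grey dash. Ccl2, Ccl7, Cxcl10 and Ccl4 lie under the dash on all 14 arrays, and Ccl3 lies above it on 3.

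By mean deposited intensity, the 6 groups of Cxcl1 95348_at fell in the order Atm+/+ 120 min (1103), Atm+/+ 30 min (494.6), Atm-/- 120 min (51.4), Atm+/+ untreated (46.6), Atm-/- untreated (40.3) and Atm-/- 30 min (29.5). The first 2 groups did not overlap with each other or with the rest, and the last 4 overlapped with a neighbour. For Cx3cl1 98008_at the order began with Atm+/+ 120 min (591.2), followed by Atm-/- 30 min (236.8), Atm+/+ 30 min (228.5), Atm-/- untreated (218.8), Atm-/- 120 min (190.1) and Atm+/+ untreated (184.8). The first group overlapped with none of the others. Of neighbours in this order among the rest, Atm+/+ 30 min overlapped with Atm-/- untreated, and Atm-/- 120 min with Atm+/+ untreated. The untreated groups of both genotypes also overlapped, as did Atm-/- 30 min with Atm-/- untreated.

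Read against the whole array, 2 of the 7 tested chemokine probe sets were called in Atm+/+ at 30 min, both higher, where 0.101% of all tested probe sets were called, and all of those were higher. At 120 min 4 of 7 were called, all higher, where 0.515% of all were called in either direction and 0.47% as higher. Between 30 and 120 min 1 of 7 was called, against 0.123% of all, and 0.101% as higher. Since Cxcl2 was tested only through its high groups, the count at 120 min is helped by it. With no filter, 4 of all 11 chemokine probe sets were called at 120 min, where 0.33% of 12422 probe sets were. Their median change was then 0.34 at 30 min and 0.42 at 120 min, beside -0.0062 and -0.012 over all probe sets. Without a test, both irradiated arrays lay above all untreated arrays for 4 of the 7 at 30 min and 4 at 120 min, where 9.06% and 12.1% of all tested probe sets did so. At both times these were the 2 Cxcl1 sets, Cxcl2 and a Cx3cl1 set. Cxcl2 was among the 7 only through these irradiated arrays, so it helps these counts too. These counts rest on few genes: the 2 calls at 30 min are 1 gene and the 4 at 120 min are 3. The chemokines were chosen with earlier results of these data known, so these counts do not test whether the family responds more than other genes.

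In Atm-/- limma called 0 chemokine probe sets at 30 min, at 120 min and between these times, in each of which it called 0% of all. At an unadjusted p under 0.05 it found 1 of the 7 in each (Ccl5, the second Cx3cl1 set and Ccl5 in turn), and 749, 645 and 640 of all 8938. Without Atm-/- 30 min B, Ccl5 was called in the comparisons that use 30 min. Both irradiated arrays exceeded all untreated ones for 1 chemokine set at 30 min (Cxcl2) and 2 at 120 min (161752_r_at and Ccl5), beside 10.8% and 13.2% of all.

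**Figure D3:**
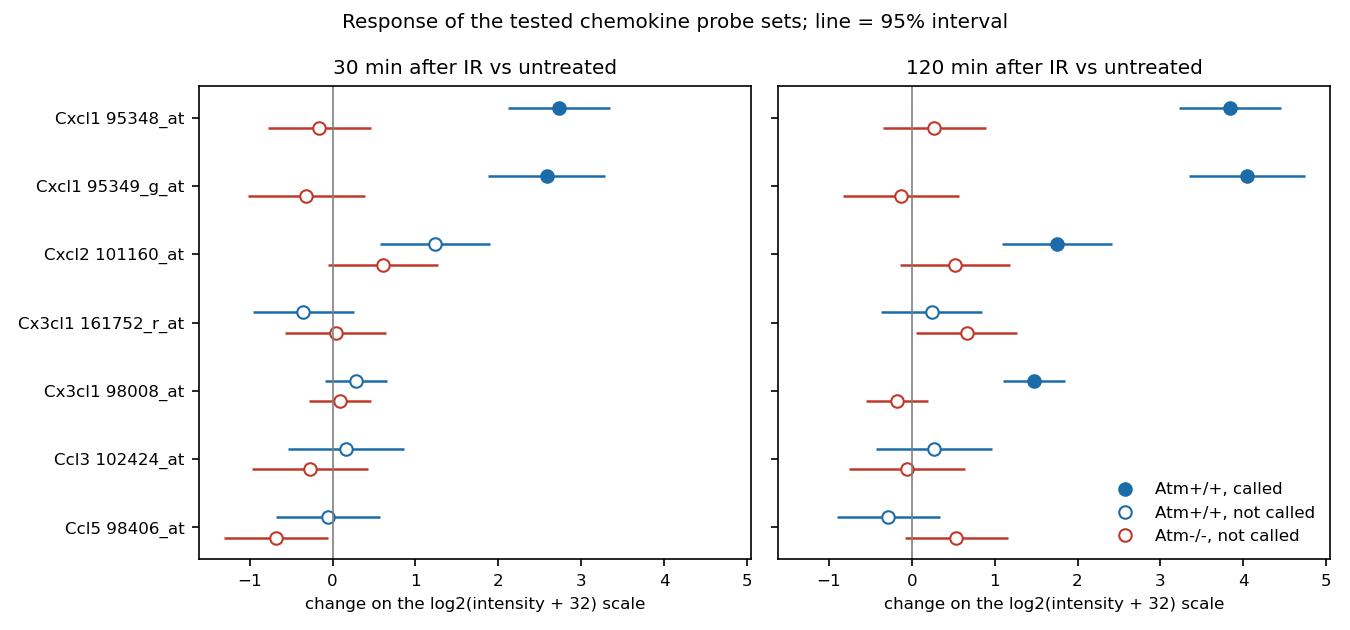
Change at 30 min (left) and 120 min (right) against untreated arrays of the same genotype for the 7 tested chemokine probe sets, on the log2(intensity + 32) scale, with points for limma estimates and lines for 95% intervals. Filled blue points are called in Atm+/+: 2 at 30 min and 4 at 120 min, with none called in Atm-/-.

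The genotypes were then compared directly. Untreated samples differed in 0 of the 7 chemokine probe sets by limma, with 0% called over all. At an unadjusted p under 0.05 there were 0 of 7 and 490 of 8938. The largest estimate was -0.32 (161752_r_at, 95% interval -0.87 to 0.22). At 30 min 2 were lower in Atm-/- than in Atm+/+, both of Cxcl1, where 0.101% of all were called in either direction. The differences were -3.05 ± 0.31 (limma, adjusted p = 0.000952) and, for 95349_g_at, -2.71 ± 0.35 (0.00688). The call of 95349_g_at was lost without Atm+/+ 30 min A (0.0578), Atm+/+ 30 min B (0.13) or Atm-/- 30 min A (0.0792), and both were lost when the fit held the compared groups alone (0.109).

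At 120 min 3 chemokine probe sets were lower in Atm-/-, against 0.257% of all in either direction. Cxcl1 differed by -3.73 ± 0.31 (limma, adjusted p = 0.000145) and -3.98 ± 0.35 (0.000195), and Cx3cl1 98008_at by -1.43 ± 0.19 (0.00509). With the compared groups alone only Cxcl1 95348_at stayed called, and the Cx3cl1 call was lost without Atm+/+ 120 min A (-1.21, adjusted p = 0.0685). Cxcl2 differed by -1.37 ± 0.34 without a call (0.174). It was called without the 3 arrays of lowest correlation (-1.86, adjusted p = 0.0188) and with a floor of 32 in place of the offset (-1.50, 0.0237).

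The difference of the responses, Atm-/- change minus Atm+/+ change, tests the genotype dependence itself. At 30 min it was called for both Cxcl1 sets, at -2.89 ± 0.40 (limma, adjusted p = 0.0209) and -2.90 ± 0.46 (0.0393), where 0.0783% of all were called. Both calls were lost without Atm-/- 30 min A (0.14 and 0.272), Atm+/+ 30 min B (0.155 and 0.243), Atm+/+ untreated C or Atm-/- untreated A or B. The call of 95349_g_at was also lost without Atm+/+ untreated B, Atm+/+ 30 min A, Atm-/- untreated C, or Atm-/- 120 min A or B. At 120 min it was called for both Cxcl1 sets, at -3.57 ± 0.40 and -4.17 ± 0.46 (limma, adjusted p = 0.00283 for each), and for Cx3cl1 98008_at at -1.65 ± 0.24 (0.0242), where 0.134% of all were called. The Cxcl1 calls at 120 min held without any one array. The Cx3cl1 call was lost without 7 of the 14 arrays in turn: Atm+/+ untreated A and C and 120 min A, and Atm-/- untreated A and C and 120 min A and B. The adjusted p reached 0.139, without Atm+/+ 120 min A. On the second Cx3cl1 set, 161752_r_at, the difference at 120 min had the opposite sign. It was 0.42 (95% interval -0.43 to 1.28), without a call (limma, adjusted p = 0.907). For Cxcl2 the difference at 120 min was -1.23 (95% interval -2.17 to -0.29) without a call (limma, adjusted p = 0.558). A genotype difference in the Cxcl2 response was thus not shown.

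**Figure D4:**
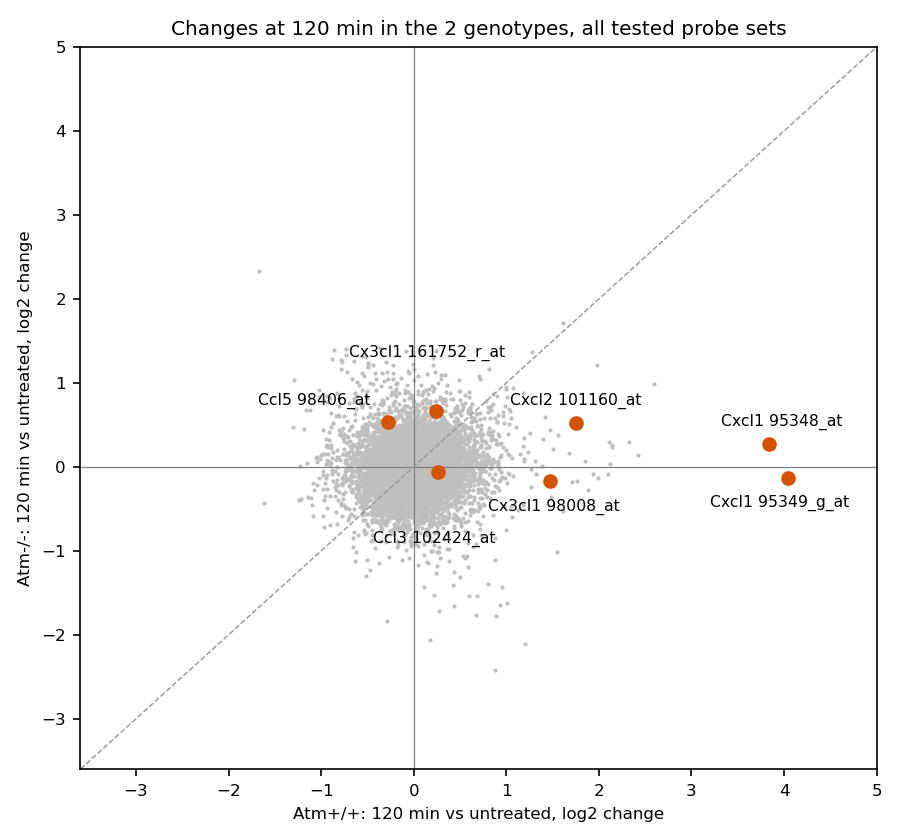
Change at 120 min against untreated in Atm+/+ (horizontal) and Atm-/- (vertical) for all 8938 tested probe sets in grey and the 7 chemokine sets in orange, both axes on the log2(intensity + 32) scale, with equality dashed. The Cxcl1 sets lie farthest right at 3.84 and 4.05, with Atm-/- changes of 0.27 and -0.13.

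Genes whose 6 group means were most like those of Cxcl1 95349_g_at, by Pearson's r over 6 points that share the same arrays, were Nfkbia (0.996), Hdhd5 (0.981), Cln8 (0.978), Nedd4l (0.976) and Cldn4 (0.975). Nfkbia, the NF-kB inhibitor that NF-kB itself induces, and Cldn4, a tight junction protein of epithelium, were called in Atm+/+ at 120 min (limma, adjusted p = 1.52e-05 and 0.00953). For Cx3cl1 98008_at they were Gpcpd1 (0.999), Orc5 (0.994), Cbfb (0.989), Wls (0.985) and Cd14 (0.985). Of these Gpcpd1 and the lipopolysaccharide co-receptor Cd14 were called at 120 min (limma, adjusted p = 0.043 and 0.000869).

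The receptors through which the chemokines act did not pass. Over all 8938 probe sets, 774 had an unadjusted p under 0.05 in Atm+/+ at 120 min, beside which such counts of the gene lists stand. Of 10 tested chemokine receptors limma called 0 in Atm+/+ at 120 min, with 3 at an unadjusted p under 0.05, and their median change was -0.05 beside -0.0045 over all probe sets. Cxcr2, the receptor of Cxcl1 and Cxcl2, changed by -0.16 ± 0.21, and Cx3cr1, that of Cx3cl1, by 0.64 ± 0.39 (limma, adjusted p = 0.89 and 0.704). The largest estimates were -0.87 ± 0.34 for Cxcr3 and 0.64 for Cx3cr1. Of 7 other inflammatory chemokines tested, 0 were called, with 0 at an unadjusted p under 0.05 and a median change of 0.08, and the largest were Xcl1 (0.62 ± 0.30) and Ccl6 (-0.29 ± 0.29). Both homeostatic chemokines tested, Cxcl12 and Cxcl13, were without a call (0.16 ± 0.26 and 0.33 ± 0.33), also at an unadjusted p under 0.05.

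Among NF-kB pathway genes, 5 of 16 tested were called in Atm+/+ at 120 min, all higher, beside 0.47% of all tested probe sets called as higher. This list too was chosen with earlier results of these data known, so its count is no test of the pathway. All 16 estimates were above 0, the median change was 0.44 beside -0.0045 over all, and 11 genes did not pass. The 5 called genes were Nfkbia (2.42 ± 0.16) and Tnfaip3, which encodes the NF-kB inhibitor A20 (2.33 ± 0.23). With them were the NF-kB family member Relb (2.14 ± 0.28), Bcl3 (2.14 ± 0.27) and the ubiquitin ligase gene Birc3 (1.99 ± 0.27). Nfkbia read 536.8, 622.0 and 505.7 in untreated Atm+/+, 1504.3 and 1929.9 at 30 min, and 3247.3 and 2735.8 at 120 min, and 542.3 to 647.2 on all 7 Atm-/- arrays. Its irradiated Atm+/+ arrays thus lay above all others. At 30 min it was the only gene of the list that was called, at 1.5 ± 0.16 (limma, adjusted p = 0.000752). Another tested Nfkbia set did not pass at 30 min (0.98, limma adjusted p = 0.175) and was called at 120 min (1.77, 0.000869). Relb and Bcl3 were also higher at 120 than at 30 min (2.45 and 1.89, adjusted p = 0.00755 and 0.033). In Atm-/- 0 of 16 were called at 120 min, 0 also at an unadjusted p under 0.05, with a median of 0.13. The difference of responses at 120 min was called for Nfkbia (-2.27 ± 0.22) and Tnfaip3 (-2.04 ± 0.33), and at 30 min for Nfkbia (-1.44 ± 0.22). Tnfaip3 passed the filter only on the 4 irradiated Atm+/+ arrays. With no filter its rise at 120 min stayed called (limma, adjusted p = 0.000848), and its difference of responses did not (0.0504).

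**Figure D5:**
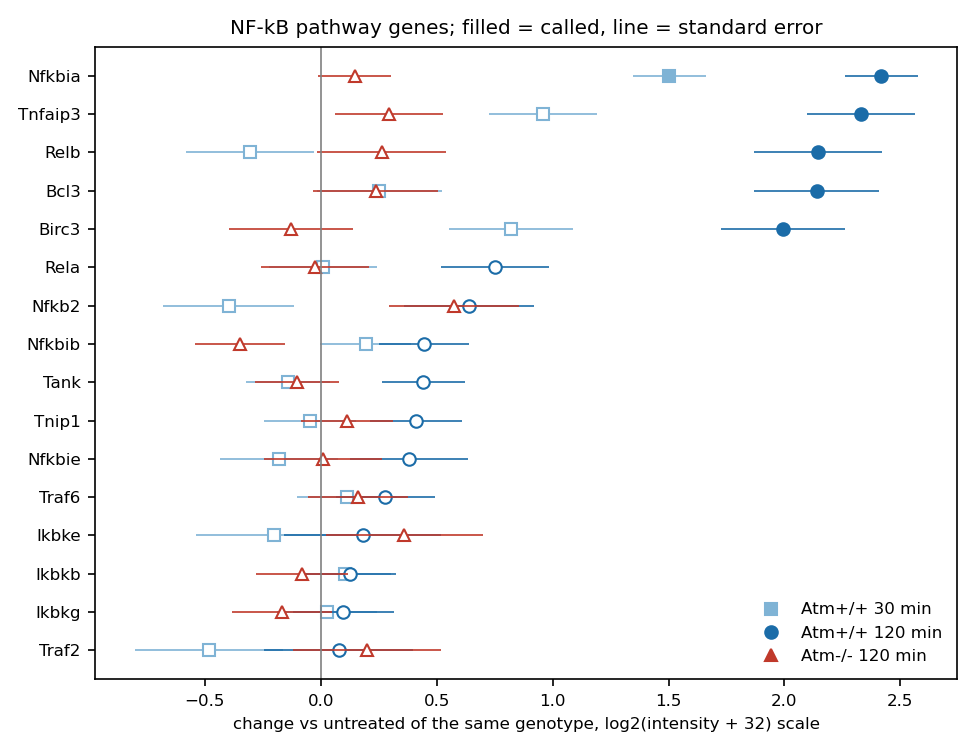
Change against untreated arrays of the same genotype for 16 NF-kB pathway genes on the log2(intensity + 32) scale, with standard errors, for Atm+/+ at 30 min (squares), Atm+/+ at 120 min (circles) and Atm-/- at 120 min (triangles). Filled symbols are called: 5 genes in Atm+/+ at 120 min, Nfkbia alone at 30 min and none in Atm-/-.

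Among AP-1, Stat and Irf factors, 2 of 14 rose in Atm+/+ at 120 min, Irf1 (1.40 ± 0.19) and Cebpd (1.05 ± 0.17), counted on each gene's set of highest mean. Junb did not pass on that set (1.27 ± 0.27, limma adjusted p = 0.0685) and rose on another (1.98, adjusted p = 0.043). Fos rose at 30 min (2.52 ± 0.21) and fell by 2.08 from there to 120 min. Of 6 factors that act on the decay of AU-rich messages, a class to which chemokine mRNAs belong, Zfp36 (1.70 ± 0.27) and the phosphatase gene Dusp1 (2.21 ± 0.19) rose at 30 min, and Dusp1 (1.13 ± 0.19) at 120 min. The difference of responses was called at 30 min for Fos (-2.63 ± 0.29) and Dusp1 (-1.87 ± 0.26), and at 120 min for Cebpd (-1.52 ± 0.23) and Dusp1 (-1.64 ± 0.26). Of 19 inducing cytokine and cytokine receptor genes on the array 10 were tested, and Tnf, Il1a, Il1b, Il6 and Ifng were under the filter. Among the 10, Csf1, the macrophage growth factor, rose at 120 min (1.71 ± 0.32, limma adjusted p = 0.037), a call that was lost with no filter (0.0537). Of 12 interferon-stimulated genes, companions of Cxcl10, 0 were called, 3 had an unadjusted p under 0.05 and the median change was -0.31. The largest were Ifit3 (-0.80 ± 0.31) and Mx1 (-0.57 ± 0.25).

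Cell markers were set beside the rise of Cxcl1, Cxcl2 and Cx3cl1 at 120 min in Atm+/+. Of 9 neutrophil markers tested 0 were called and 1 had an unadjusted p under 0.05, and the summed intensity of 12 was 1125.5 to 1162.9 against 743.4 to 1168.7 untreated. Lcn2, which epithelium also makes, was the neutrophil-list gene of largest change (1.47 ± 0.33, limma adjusted p = 0.0996). Levels on this list differed widely over all arrays: Ly6g lay at 5.8 to 24.5, S100a8 at 22.1 to 363.1 and Csf3r at 238 to 528.7. Of 12 macrophage markers Cd14 alone rose (2.10 ± 0.24), and of 17 endothelial and stromal markers Icam1 alone (2.10 ± 0.22), both of them also inducible genes. Their responses differed between the genotypes, by -2.18 ± 0.33 for Cd14 and -1.81 ± 0.31 for Icam1 (limma, adjusted p = 0.0265 and 0.0493). With no filter the Icam1 difference was not called (0.0722). Of 13 B cell markers Cd22 and H2-Ob fell, by 1.62 and 0.95, and the summed level was 958.7 to 1292.8 against 2104.8 to 2564.2. All 12 T cell markers tested were below 0, with none called and 3 at an unadjusted p under 0.05. Of 4 NK cell, 7 salivary and 9 adipocyte markers none were called by limma, with 0, 1 and 1 at an unadjusted p under 0.05. Their part in the chemokine values was not tested.

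Skeletal muscle markers moved with the comparison and in opposite directions in the genotypes. All 16 tested were above 0 in Atm+/+ at 120 min (median 0.63) and all 16 below 0 in Atm-/- (median -1.48), with none called and 1 and 12 at an unadjusted p under 0.05. With the mean muscle level as a covariate, chosen after seeing the data, the rise at 120 min was 3.97 and 4.15 for Cxcl1, 1.85 for Cxcl2 and 1.49 for Cx3cl1, all called (limma, adjusted p = 9.85e-05, 0.000218, 0.0471 and 0.00477). The response difference at 120 min was then -4.0 and -4.52 for Cxcl1 (adjusted p = 0.0378 for each), and for Cx3cl1 -1.70 without a call (0.392).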

How the data were processed

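RNA of 14 mouse samples was measured on one-colour Affymetrix arrays. The deposited values are 1 intensity per probe set and array. The sources used here do not name the software. Each array's mean without its highest and lowest 2% was 150.1, as read from the deposited values. Groups and letters came from the sample titles.

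Values were taken as log2(intensity + 32) and quantile normalized, since the array medians spanned 0.27. From 12488 probe sets, 66 control sets were left out, and 8938 exceeded their array's 40th percentile on at least 2 arrays. Symbols came from the platform annotation, of which 10855 probe sets had 1 gene, 396 several and 1237 none. By Entrez ID 10839 were found and 0 symbols changed. A gene of a list was represented by its tested probe set of highest mean. A model of 6 group means on all 14 arrays was fitted by lmFit, contrasts.fit and eBayes of limma 3.58.1 under R 4.3.3 (8 residual and 4.56 prior degrees of freedom), with Benjamini-Hochberg adjustment over 8938 probe sets. The script was tested on simulated data. The number of arrays limits precision.

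The chemokines and gene lists were chosen with earlier results of these data known. All chemokine probe sets were named, and of each pathway list the called genes, otherwise the 2 of largest change at 120 min in Atm+/+. The 5 genes most like Cxcl1 and Cx3cl1 were taken by Pearson's r. Cxcr2, Junb and the cell marker genes were named after their values were seen. Promoter windows are RefSeq's. Alternatives were the normalization, the offset (16 or 64) or a floor, the filter, a replicate block, array weights, the compared groups alone and each array left out. Leaving out the 3 arrays of lowest correlation and a muscle covariate were added after seeing the data.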

Additional observations from a re-analysis of the deposited data

Results flagged for a closer look

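The radiation responses of 2 chemokine genes, Cx3cl1 on 98008_at alone, differed between the genotypes. The value tested was the difference itself, Atm-/- change minus Atm+/+ change. For Cxcl1 95348_at it was -2.89 at 30 min and -3.57 at 120 min (limma, adjusted p = 0.0209 and 0.00283). On the second Cxcl1 set, 95349_g_at, it was -2.90 and -4.17 (0.0393 and 0.00283). For Cx3cl1 98008_at at 120 min it was -1.65 (0.0242). The second Cx3cl1 set, 161752_r_at, had the opposite sign there and no call (0.42, limma adjusted p = 0.907). Both Cxcl1 sets measure the same gene. The differences at 30 min and that of Cx3cl1 were lost when single arrays were left out, and with the muscle covariate Cx3cl1 was not called (0.392).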

How the results depend on the processing

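Over 77 chemokine results and 1890 alternative values, 1775 kept direction and side of the threshold, 72 lost a call, 6 gained one, 37 changed sign without a call and 0 called values changed sign. The number of chemokine probe sets called in Atm+/+ between 30 and 120 min went from 1 to 0 with an offset of 16, the compared groups alone, the 3 arrays of lowest correlation left out or the muscle covariate. Lower in Atm-/- at 30 min, 2 became 1 with array weights, 0 with the compared groups alone and 1 without the 3 arrays, and at 120 min 3 became 1 with the compared groups alone. The 2 response differences at 30 min became 0 with an offset of 16, array weights or the 3 arrays left out, and 1 with a floor, no filter, the compared groups alone or the muscle covariate. The 3 at 120 min became 1 without the 3 arrays. The cause was not tested. Leaving out each array gave 1 to 2 calls in Atm+/+ at 30 min, 0 to 1 between 30 and 120 min in each genotype and in Atm-/- at 30 min, 1 to 3 lower in Atm-/- at 30 min and 0 to 2 response differences at 30 min.

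With the letter as a replicate block, chemokine calls went from 1 to 0 between the times in Atm+/+ and from 2 to 1 for the response difference at 30 min. Over all probe sets, calls went from 46 to 25 in Atm+/+ at 120 min, from 11 to 4 between the times, and from 7 to 3 and 12 to 5 for the response differences. With the block Cxcl2 in Atm+/+ at 120 min (adjusted p = 0.058) and the Cx3cl1 response difference (0.0752) were not called. Deviations of same-letter arrays from their group means correlated at -0.12 to 0.08 over 31 pairs, and those of other letters at -0.12 to 0.12 over 50. In groups of 2 arrays the deviations mirror each other, so the 2 ranges are not independent. They show no clear pairing by letter but do not settle whether the letters pair the arrays. Over all settings the calls in Atm+/+ at 120 min ranged from 13 (without Atm+/+ 120 min B) to 66 (array weights), beside 46. Intensities under the 40th percentile limit what can be said of Ccl2, Ccl7, Cxcl10 and Ccl4.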
